A study of Mus musculus with 289 samples.

Results

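Mouse cortical astrocytes that received guide RNAs against both Sox9 and Trps1 were compared with astrocytes that received guide RNAs against Sox9 alone, 7 days after the guides were delivered. The members were the cells labelled g-Sox9+Trps1, day 7 (14 dual guide cells) and the cells labelled g-Sox9, day 7 (21 Sox9 guide cells), both taken from the count table of batch 3, so that 35 of the 289 samples of the series entered. All 35 came from the brains of adult transgenic mice that express the Cas9 nuclease. The mice had been injected with Mok-LV, a lentivirus built to act in astrocytes. Single cells were aspirated with an electrophysiological tip and made into Smart-seq2 libraries, which read full-length polyadenylated RNA and carry no molecular identifiers. Batch 3 also held 4 in-slice controls of day 7, labelled as containing no cell, and 6 astrocytes labelled no-gRNA and adult. Cells with a control guide or with the Trps1 guide alone were in other batches, so by their labels the groups compared here share Sox9 guides and differ by the Trps1 guide. The labels named no animal, and the cells of a group could therefore not be treated as replicates. Each group was 1 pool and no test was possible. Intervals on levels given below cover the counting of reads only. Intervals on shares of cells take the cells as independent draws, which the labels do not establish. Neither kind covers differences between animals.

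SOX9 is a transcription factor that in the adult brain marks nearly all astrocytes and is needed for their formation in development. TRPS1 is a zinc finger protein of the GATA type that mainly represses transcription and was first studied in cartilage, where SOX9 acts as well. Cas9 cuts the gene a guide matches, and the repair often shifts the reading frame. The transcript of an edited gene can still be made and read, so the level of the target's RNA is no direct measure of editing.

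The level of a gene was given as CPM, its reads scaled to 1000000 reads in genes, over all cells of a pool. CPM is not divided by transcript length, so it compares a gene between pools and not genes with each other. Dual guide cells held 959721 to 2313691 reads in genes (median 1605836) and Sox9 guide cells 111941 to 2162028 (median 1444748). Fewer genes had a read in dual guide cells, with a median of 3980 genes (2510 to 8791) against 6056 (3334 to 12740). At an equal depth of 100000 reads per cell the medians were 2515 and 4045. The titles divided each group into 2 series of cells whose meaning the sources used here do not give: 7ST (7 cells) and 7ST2 (7 cells) among dual guide cells, 7S (13 cells) and 7S2 (8 cells) among Sox9 guide cells. The median number of genes was 6902 in 7ST, 3436 in 7ST2, 6677 in 7S and 4624 in 7S2. Mitochondrial genes took a median of 1.97% of reads in dual guide cells, 3.87% in Sox9 guide cells and 16.04% in in-slice controls. A row of ribosomal RNA took a median of 15.2 and 12.6% of reads in the 2 groups. No pair of the 35 libraries held identical counts.

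The astrocyte label was checked against defining markers before any comparison. Reads of Aldh1l1, Aqp4, Slc1a2, Slc1a3 and Gja1, the classic astrocyte enzyme, water channel, glutamate transporters and gap junction protein, were present in all 35 cells. Their summed level had a median of 3879 CPM in dual guide cells (111 to 9437), 3353 CPM in Sox9 guide cells (1.11 to 28104) and 101 CPM in in-slice controls (0.927 to 305). In 6 of 14 dual guide cells and 11 of 21 Sox9 guide cells, however, the defining markers of another cell type summed to more than those of astrocytes. These were neuron markers in 4 cells of each group, microglia markers in 1 dual guide and 4 Sox9 guide cells, and oligodendrocyte markers in 1 dual guide and 3 Sox9 guide cells. Such sums set genes of different length side by side and are a coarse check. Because these cells go against their label, results are also given for the 8 dual guide and 10 Sox9 guide cells in which astrocyte markers were highest.

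**Figure D1:**
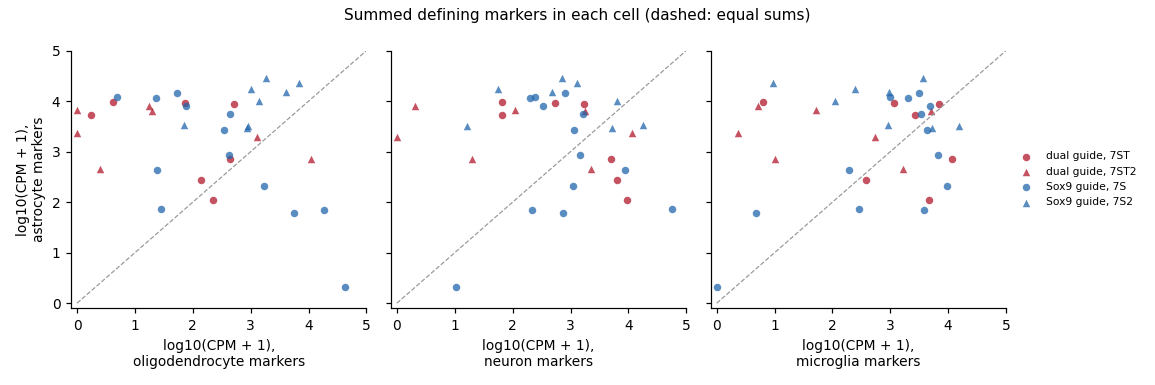
Each point is 1 cell, with the summed CPM of the 5 astrocyte markers on the vertical axis and that of oligodendrocyte, neuron or microglia markers on the horizontal axis (both log10 of CPM + 1). Points under the dashed line hold more of the other type's markers, and 3 Sox9 guide cells of series 7S lie far under it in the oligodendrocyte panel.

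The count table held 3 rows for guide sequences, so the reads of each guide could be counted in every cell. The first Sox9 guide, g-Sox9_1, was read in 12 of 14 dual guide cells (85.7%, exact Clopper-Pearson interval 57.2 to 98.2%) and in 13 of 21 Sox9 guide cells (61.9%, 38.4 to 81.9%). The second, g-Sox9_2, was read in 3 of 14 dual guide cells and 16 of 21 Sox9 guide cells, with 37 against 291 reads. The groups thus differed in which Sox9 guide was read as well as in the Trps1 guide. The Trps1 guide, g-Trps1_1, was read in 9 of 14 dual guide cells (64.3%, 35.1 to 87.2%), with 148 reads and up to 42 in a cell. It was also read in 4 of 21 Sox9 guide cells, with 5 reads in all and at most 2 in a cell. Its reads were uneven between the dual guide series, with 7 of 7 cells of 7ST2 (142 reads) but 2 of 7 cells of 7ST (6 reads). Of the dual guide cells, 9 held reads of both a Sox9 and the Trps1 guide, 3 of a Sox9 guide alone and 2 of no guide. In-slice controls held 1 read of each Sox9 guide and none of the Trps1 guide, and no-gRNA cells held none of the 3.

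**Figure D2:**
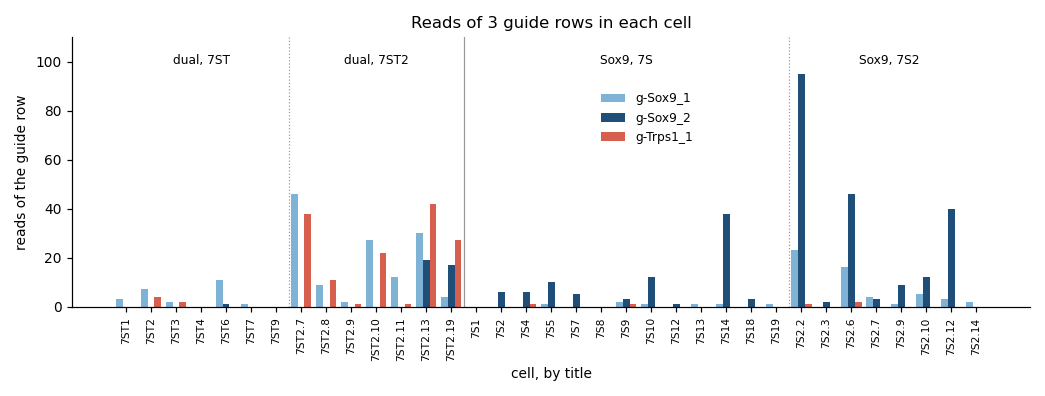
Bars give the reads of the 3 guide rows in each of the 35 cells, ordered by group and series on the horizontal axis. The Trps1 guide stands out in series 7ST2, with up to 42 reads in a cell, while the second Sox9 guide has up to 95 reads in a cell of series 7S2.

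Neither target gene was lower across the dual guide pool. Sox9 (ENSMUSG00000000567, GRCm38 chromosome 11, 112782224 to 112787760, plus strand) had a read in 12 of 14 dual guide and 19 of 21 Sox9 guide cells. Per cell it ran from 0 over a median of 207 CPM to 14893 CPM in dual guide cells, and from 0 over 412 CPM to 7718 CPM in Sox9 guide cells. The groups overlapped over most of their range. The pools stood at 1492 CPM (exact Poisson interval 1476 to 1509) and 1303 CPM (1290 to 1316), but a single cell of series 7ST2 decided the order. Without the highest cell of each pool the levels were 390 and 1037 CPM, a log2 ratio of -1.40 on the scale of CPM + 5 used throughout. Sox9 also differed between series that share a label, at 412 CPM in 7S and 2767 CPM in 7S2, where all 8 cells held at least 412 CPM.

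Trps1 (ENSMUSG00000038679, chromosome 15, 50654752 to 50890463, minus strand) had a read in 11 of 14 dual guide and 15 of 21 Sox9 guide cells. Its median per cell was 27.4 CPM (0 to 3454) in dual guide cells and 3.29 CPM (0 to 455) in Sox9 guide cells. As pools the groups held 294 CPM (287 to 302) and 74.0 CPM (71.0 to 77.2), and at 92.5 and 54.7 CPM without their highest cells. The cell of 3454 CPM, from series 7ST2, held 38 reads of the Trps1 guide and no read of Sox9. It is also the dual guide cell in which oligodendrocyte markers summed to more than astrocyte markers. At 100 CPM or more, Sox9 and Trps1 were both found in 5 of 14 dual guide and 3 of 21 Sox9 guide cells, and neither in 5 and 6 cells. In-slice controls held 0.166 CPM of Sox9 and 3.49 CPM of Trps1. In the cells whose astrocyte markers were highest, Trps1 turned to 102 against 149 CPM.

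Across the table, 9754 genes with a mean of 10 CPM or more over both pools were compared. A gene was called higher or lower in dual guide cells when the log2 ratio of the pools reached 1 in size, over all cells and again without the highest cell of each pool for that gene. By this description, which is no test, 996 genes (10.2%) were higher and 2069 genes (21.2%) lower, 31.4% in all. The median log2 ratio over all compared genes was -0.06, and -0.44 without the highest cells. Dual guide cells had fewer genes with a read, and lower calls outnumbered higher ones. Without series 7ST2 the remaining dual guide cells had a median of 6902 genes, against 6056 in Sox9 guide cells. In that setting 804 genes were higher and 2140 lower. The part of the number of genes read in the lower calls was not tested. In such pools a difference in RNA per cell and a difference in the kinds of cells taken cannot be told apart.

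Serpina3n, a secreted serine protease inhibitor that reactive astrocytes make in quantity, was higher in dual guide cells, but through few cells. It had a read in 9 of 14 dual guide cells (64.3%, 35.1 to 87.2%) and 6 of 21 Sox9 guide cells (28.6%, 11.3 to 52.2%), and in 32.3 and 23.8% at an equal depth of 100000 reads. The median cell held 0.760 CPM in the dual guide group and 0 in the Sox9 guide group. In series 7ST2, 2 cells held 7531 and 15933 CPM and the other 5 at most 1.85 CPM. In series 7ST the highest cells held 171 and 550 CPM, and among Sox9 guide cells 687 and 3728 CPM, both in series 7S. The gene was therefore near 0 in most cells of either group and high in a few of both. The pools stood at 1607 CPM (1590 to 1624) and 255 CPM (249 to 261), a log2 ratio of 2.63, and at 414 and 33.5 CPM without their highest cells, a ratio of 3.44. The direction was not the same in all series: 7ST lay below 7S (87.1 against 400 CPM, log2 ratio -2.1), while the ratios of the other pairs were 2.09, 2.87 and 7.09. Without series 7ST2 the ratio of the pools turned to -1.50. In-slice controls held 25.4 CPM and no-gRNA cells 801 CPM. Serpina3n (ENSMUSG00000021091, chromosome 12, 104406729 to 104414329, plus strand) lies in a family of near-identical copies, and the counting of reads shared between them is not described in the sources used here.

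A2m, which encodes alpha-2-macroglobulin, a secreted inhibitor that traps proteases of many kinds, was higher in dual guide cells in every pair of series. It (ENSMUSG00000030111, chromosome 6, 121635376 to 121679227, plus strand) had a read in 6 of 14 dual guide cells (42.9%, 17.7 to 71.1%) and 4 of 21 Sox9 guide cells (19.05%, 5.45 to 41.9%). At 100 CPM or more it was found in 5 dual guide cells, 3 of series 7ST (223, 230 and 757 CPM) and 2 of series 7ST2 (1246 and 1419 CPM). Only 1 Sox9 guide cell passed that level, with 493 CPM. The higher level thus sat in 5 of 14 dual guide cells, from both series, and the median cell of both groups was at 0. Summed over cells, A2m stood at 275 CPM (268 to 282) and 34.1 CPM (32.1 to 36.3), a log2 ratio of 2.84, and at 181 and 4.50 CPM without their highest cells, a ratio of 4.29. The ratios between series ran from 1.65 to 4.73. In-slice controls held no read, which allows up to 0.498 CPM (3 counts over the 4 libraries). Of no-gRNA cells, 1 of 6 held a read, at 493 CPM. Serpina3n and A2m reached 100 CPM together in 2 of 14 dual guide cells and in none of the 21 Sox9 guide cells.

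**Figure D3:**
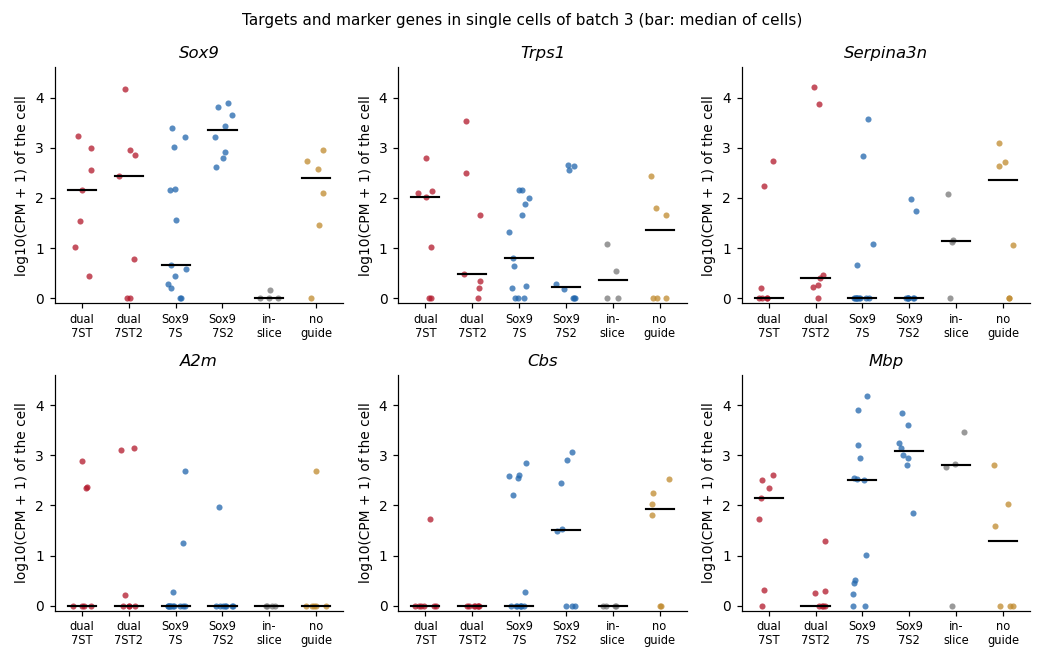
Each point is 1 cell (log10 of CPM + 1) and the bar is the median of the cells, for both targets and 4 marker genes, by group and series, with in-slice controls and no-gRNA cells on the right of each panel. Cbs is at 0 in 13 of 14 dual guide cells, whereas Serpina3n and A2m are high in a minority of cells.

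Cbs, cystathionine beta-synthase, the enzyme that joins homocysteine to serine at the start of transsulfuration and is enriched in astrocytes, was nearly absent from dual guide cells. It (ENSMUSG00000024039, chromosome 17, 31608894 to 31637238, minus strand) had a read in 1 of 14 dual guide cells (7.14%, 0.181 to 33.9%), at 51.7 CPM. In Sox9 guide cells it had a read in 11 of 21 (52.4%, 29.8 to 74.3%), of which 8 held 163 to 1177 CPM. Both series of Sox9 guide cells contributed, with 6 of 13 cells in 7S and 5 of 8 in 7S2. Summed over cells, Cbs stood at 2.81 CPM (2.1 to 3.6) and 193 CPM (188 to 198), a log2 ratio of -4.66. Without the highest cells the dual guide pool held no read and the Sox9 guide pool 152 CPM. At an equal depth of 100000 reads the shares were 7.11 and 47.7%, a gap of like size. In-slice controls held no read of Cbs, and no-gRNA cells held 107 CPM with a read in 4 of 6. In the cells whose astrocyte markers were highest, Cbs had a read in 1 of 8 dual guide and 9 of 10 Sox9 guide cells, at 5.51 against 403 CPM.

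Other genes of sulfur amino acid, one-carbon and glutathione metabolism were not all lower. Of 35 compared, 9 were lower (25.7%, near the 21.2% of all genes) and 1 was higher, with a median log2 ratio of -0.78. Phgdh, the first enzyme of serine synthesis, was among the lower, at 93.0 against 306 CPM and with a read in 5 of 14 against 19 of 21 cells. Gldc, a subunit of the glycine cleavage system, stood at 0.140 against 53.2 CPM. Mtrr, the reductase that keeps methionine synthase active, stood at 10.2 against 47.6 CPM. Without series 7ST 18 of 35 genes of the list were lower, against 35.4% of all genes, and without series 7ST2 again 9, against 22.3%.

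Mbp, myelin basic protein, a main component of the myelin that oligodendrocytes form, was lower in dual guide cells. It (ENSMUSG00000041607, chromosome 18) had a read in 9 of 14 dual guide cells (64.3%, 35.1 to 87.2%) and 19 of 21 Sox9 guide cells (90.5%, 69.6 to 98.8%). Per cell it ran from 0 over a median of 1.02 CPM to 411 CPM, against 0 over 624 CPM to 15250 CPM. At 100 CPM or more it was found in 4 dual guide cells, all of series 7ST, and 14 Sox9 guide cells. The pools stood at 79.6 CPM (75.9 to 83.5) and 2281 CPM (2264 to 2299), a log2 ratio of -4.76, and at 60.6 and 1455 CPM without their highest cells. The ratios between series ran from -8.33 to -3.51. The background of the slice was high for this gene: the in-slice controls held 783 CPM, with 0 in the library of series 7ST2, 584 CPM in that of 7S and 671 and 2926 CPM in those of 7ST. All 14 dual guide cells lay below 783 CPM, and 6 of the 8 Sox9 guide cells of series 7S2 lay above it. The part of the slice background in the difference was not tested.

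The oligodendrocyte list as a whole was lower in dual guide cells, with 12 of 14 compared genes lower (85.7%, against 21.2% of all genes) and none higher (median log2 ratio -1.79). Its 19 measured genes summed to 2609 CPM in the dual guide pool (0 to 18004 per cell) and 9654 CPM in the Sox9 guide pool (134 to 75576), with 1555 to 5464 CPM in in-slice controls. Much of it sat in 3 Sox9 guide cells of series 7S. These held 865, 8042 and 15250 CPM of Mbp and 853 to 1534 CPM of Mag, a glycoprotein of the innermost myelin layer. In the same cells Aqp4 was at most 0.578 CPM and Slc1a2 at most 68.8 CPM, and they are the cells whose highest markers were those of oligodendrocytes. Without them 4 of 11 compared genes of the list were lower and 3 higher, against 20.1 and 11.3% of all genes. Without these 3 cells Cnp turned to a log2 ratio of 0.29 and Sirt2 to 1.09. Mbp kept a log2 ratio of -3.62 without them. The 8 cells of series 7S2 held 68.9 to 6921 CPM of Mbp, while Mag was read in 2 of them.

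Markers of microglia, neurons and oligodendrocyte progenitors differed by series. The microglia and macrophage list held 7 lower (30.4%) and no higher genes of 23 compared (median log2 ratio -0.58), against 21.2% lower over all genes. Without series 7ST 17 of 23 were lower, against 35.4% of all genes, and without series 7S 1 of 23, against 16.7%. Without series 7ST2 3 of 24 were lower, against 22.3%, with a median of 0.10. Its sum stood at 8603 against 12691 CPM, with a range per cell of 15.5 to 38385 and 1.11 to 56912 CPM. C1qb, a complement subunit made by microglia, stood at 1161 against 1733 CPM and had a read in 14 of 14 and 20 of 21 cells, with 4569 CPM in in-slice controls. The pan-neuron list held 4 higher genes (28.6%, against 10.2% of all genes) and 1 lower gene of 14 compared (median 0.47), with sums of 5790 and 4993 CPM. Of the same 14 genes, 1 was higher and 4 lower without series 7ST, against 7.9 and 35.4% of all genes. On mean log2 values 1 was higher and 7 lower, against 4.32 and 27.99% of all genes. In the cells whose astrocyte markers were highest 1 was higher and 6 lower (median -1.06), against 10.8 and 27.7%. Map2, a dendritic microtubule protein, stood at 538 against 158 CPM, and Snap25, a synaptic fusion protein, at 2641 against 2083 CPM. The oligodendrocyte progenitor list, which holds Cacng4, had a median sum per cell of 1917 CPM in 7ST2, 64.1 in 7ST, 120 in 7S and 30.2 in 7S2. Its median log2 ratio of -0.30 turned to 2.40 without the 3 Sox9 guide cells highest in oligodendrocyte markers. The defining progenitor markers, Pdgfra and Cspg4, were read in 2 of 14 dual guide and 3 of 21 Sox9 guide cells. The defining endothelial markers had no row in the table. The part of cells of other types in any difference was not tested beyond the restricted comparison of astrocyte marker cells.

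Genes to be named beyond these were taken by 1 rule. The gene had to be called, to reach 20 CPM and a read in 40% of cells in the higher pool, to differ by 20 percentage points in share of cells, and to keep its direction in all 4 pairs of series. It was met by 72 higher and 589 lower genes, and the 12 of largest ratio each way are described. The counting interval of the higher pool lay within 6.58% of its level for all 24. Because the rule asks for 1 direction in all pairs of series, that direction supports nothing further.

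The genes higher in dual guide cells had varied roles. Cacng4, an auxiliary subunit of AMPA-type glutamate receptors that is also on the list of oligodendrocyte progenitor genes, had a read in 8 of 14 dual guide and 2 of 21 Sox9 guide cells. It was high in 3 cells of series 7ST2 (761, 821 and 1093 CPM), reached at most 47.4 CPM in 7ST and at most 54.7 CPM among Sox9 guide cells. Its pools held 163 and 2.23 CPM, and without series 7ST2 the log2 ratio was 1.02 in place of 4.54. Lpar6, a receptor for lysophosphatidic acid, stood at 182 against 17.1 CPM, with 100 CPM or more in 4 of 14 and 1 of 21 cells. Kcnd2, a pore subunit of A-type potassium channels, stood at 64.3 against 5.62 CPM, with a read in 7 of 14 and 5 of 21 cells. These encode proteins of the cell membrane, while the next genes encode regulators inside the cell.

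Trrap, a scaffold of histone acetyltransferase complexes, was read in 11 of 14 dual guide and 10 of 21 Sox9 guide cells, and 8 against 4 cells held 100 CPM or more. Its median cell stood at 110 CPM in the dual guide group and at 0 in the Sox9 guide group, and the pools at 280 and 41.5 CPM (log2 ratio 2.62). No other gene of the 12 had a read in as many dual guide cells. Sin3a, the scaffold of a histone deacetylase corepressor, stood at 59.5 against 1.20 CPM. Ric8b, a chaperone of G protein alpha subunits, stood at 79.4 against 8.02 CPM, with a read in 9 of 14 and 4 of 21 cells. Pde8b, a phosphodiesterase that breaks down cyclic AMP, stood at 103 against 11.5 CPM, with a read in 9 of 14 and 7 of 21 cells. Rab40b, a small GTPase that recruits a ubiquitin ligase, stood at 126 against 2.6 CPM. The other members were A2m, Fryl (90.5 against 3.59 CPM), Cnnm2, a magnesium transport regulator (44.3 against 2.53 CPM), and B9d1, a protein of the ciliary transition zone (49.4 against 4.03 CPM). In-slice controls held 0 to 32.4 CPM of these 12 genes, the highest being Fryl.

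Among the genes lower in dual guide cells were Mag, Cbs and Mbp, described above, and 9 others. Mag had no read in any of 14 dual guide cells, which allows up to 0.140 CPM (3 counts over the pool), and stood at 228 CPM in the Sox9 guide pool with a read in 9 of 21 cells, at least 1623-fold higher. In the cells whose astrocyte markers were highest it stood at 0 against 17.5 CPM. Tmem44, a membrane protein, had 1 dual guide cell with a read, at 1.03 CPM, and 14 of 21 Sox9 guide cells, up to 1542 CPM. Pip4k2a, a phosphoinositide kinase, had a read in 2 of 14 against 17 of 21 cells, at 1.17 against 143 CPM. Las1l, an endonuclease factor of ribosomal RNA maturation, had a read in 1 of 14 against 14 of 21 cells, at 0.327 against 103 CPM. For these genes the dual guide cells were nearly all at 0 and the Sox9 guide cells spread from 0 upward, so the groups overlapped at 0.

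Atp13a4, a P-type ATPase enriched in astrocytes, stood at 1.87 against 111 CPM. Cul4a, the scaffold of a cullin ubiquitin ligase, stood at 4.4 against 140 CPM, and Cyp4f13, a cytochrome P450 of the fatty acid hydroxylase family, at 7.95 against 192 CPM. Glrx5, a mitochondrial glutaredoxin of iron-sulfur cluster assembly, had a read in 3 of 14 against 15 of 21 cells, at 2.2 against 97.8 CPM. Plk3, a polo-like kinase of the stress response, stood at 1.45 against 85.0 CPM, and Sowahc at 0.842 against 84.0 CPM. In the 8 and 10 cells whose astrocyte markers were highest, 11 of the 12 lower genes (all but Mag) and 9 of the 12 higher genes (all but Rab40b, Kcnd2 and Ric8b) were called in the same direction. The 24 genes were chosen over all 35 cells, which include these, so that choice in part fixes the agreement. For Serpina3n the 8 and 10 cells gave 3156 against 6.27 CPM, with a read in 6 of 8 and 1 of 10 cells. They include the dual guide cell of 15933 CPM, of series 7ST2, and leave out the Sox9 guide cell of 3728 CPM. Mbp stood at 54.3 against 1479 CPM there, although Mbp was among the markers that chose these cells.

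**Figure D4:**
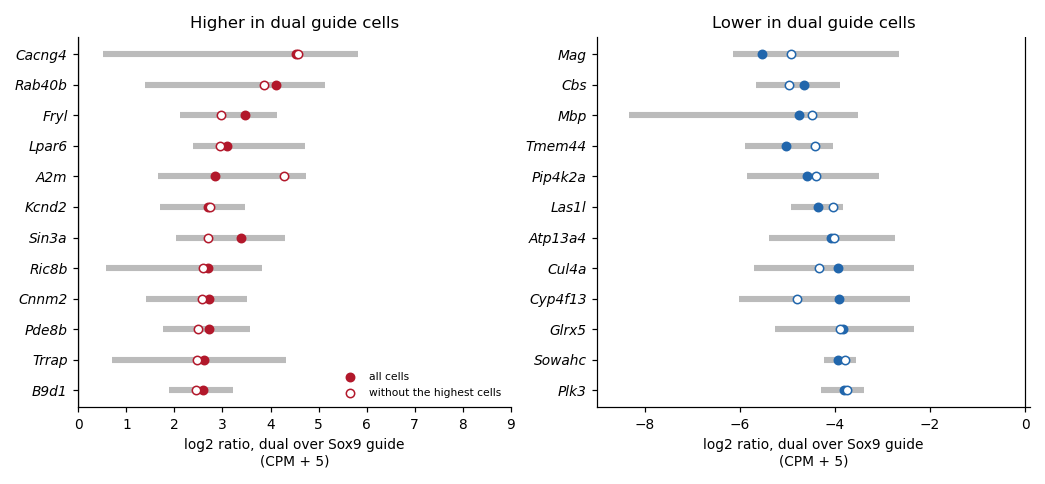
Filled points give the log2 ratio of the pools (CPM + 5) over all cells, open points the ratio without the highest cells, and grey bars the range over the 4 pairs of series, for the 12 named genes each way. Mbp has the widest range among the lower genes (-8.33 to -3.51) and Cacng4 the widest among the higher genes (0.50 to 5.83).

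Genes of astrocyte identity were called lower or not called, and none was higher: 15 of 50 compared were lower, against 21.2% of all genes, with a median log2 ratio of -0.57. Acsbg1, an acyl-CoA synthetase, stood at 194 against 975 CPM and had a read in 7 of 14 against 16 of 21 cells. Aldh1l1, the folate enzyme used as a pan-astrocyte marker, stood at 52.0 against 230 CPM, and Gja1, connexin 43, at 731 against 2605 CPM. Mertk, a receptor of phagocytosis, stood at 1.96 against 54.2 CPM. Aqp4 (642 against 723 CPM) and Slc1a3 (1457 against 2028 CPM) were not called. The summed list had a median per cell of 41800 CPM in 7ST, 34871 in 7ST2, 20877 in 7S and 68934 in 7S2, so the series of Sox9 guide cells stood on both sides of the dual guide series. Without series 7ST 24 of 50 were lower, against 35.4% of all genes. Without series 7S 21 of 49 were lower, against 16.7%, and without series 7S2 9 of 49, against 19.4%.

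Genes of glutamate, GABA and ion handling included 13 lower (34.2%, against 21.2% of all genes) and 4 higher of 38 compared (median -0.62). Without series 7ST 22 of 38 were lower, against 35.4% of all genes, and without series 7S2 7 of 37, against 19.4%. Slc6a11, the GABA transporter GAT-3, stood at 0.982 against 50.6 CPM, with a read in 4 of 14 against 10 of 21 cells. Abat, which breaks down GABA, stood at 40.2 against 177 CPM, with a read in 5 of 14 against 18 of 21 cells. Kcnj16, an inward rectifier potassium channel subunit, stood at 16.5 against 56.9 CPM. Fatty acid uptake and oxidation held 10 lower genes (32.3%) and 1 higher gene of 31 (median -0.39). Without series 7ST2 15 of 31 were lower, against 22.3% of all genes. Without the Sox9 guide cells that held a Trps1 guide read 5 of 30 were lower, against 20.1%. Hadhb, a subunit of the mitochondrial trifunctional protein, stood at 14.7 against 138 CPM, with a read in 7 of 14 against 19 of 21 cells, and in-slice controls held 184 CPM. Etfa, an electron carrier of fatty acid oxidation, stood at 12.4 against 107 CPM. Of 75 oxidative phosphorylation genes 6 (8.0%) were lower and none higher, against 21.2% lower over all genes. Without series 7ST 25 of 74 were lower, against 35.4% of all genes. In the cells whose astrocyte markers were highest 21 of 74 were lower, against 27.7% of all genes. On mean log2 values 42 of 75 were lower, against 27.99% of all genes.

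Genes of the reactive astrocyte list went the other way, with 10 of 32 compared higher (31.2% against 10.2% of all genes), 2 lower and a median log2 ratio of 1.01. The median was 0.04 without the highest cells. Without series 7ST2 no gene of the list was higher and 4 of 26 were lower, against 8.4 and 22.3% of all genes. Cp, ceruloplasmin, the copper ferroxidase, stood at 232 against 15.9 CPM. Osmr, the receptor subunit for oncostatin M, stood at 160 against 35.9 CPM with a read in 7 cells of each group, and its log2 ratio turned to -1.60 without series 7ST2. Slc10a6, a steroid sulfate transporter, was read in 2 dual guide cells, both of 7ST2, and in no Sox9 guide cell. Gfap, the intermediate filament most used to mark reactivity, lies outside the naming rule and was added after its values were seen. It stood at 749 against 890 CPM, with a read in 11 of 14 and 17 of 21 cells. Acute-phase genes and secreted protease inhibitors, a list that holds Serpina3n, A2m, Cp and Osmr as well, had 7 higher genes and 1 lower gene of 24 (median 0.67). These were 29.2 and 4.2%, against 10.2 and 21.2% of all genes. Without series 7ST2 4 of 20 were higher and 6 lower, against 8.4 and 22.3% of all genes.

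Cell cycle genes held 8 higher genes (25.8%) and 1 lower gene (3.2%) of 31 compared, against 10.2 and 21.2% of all genes. The median log2 ratio of the list, 1.43, stood at 0.03 without the highest cells. Without series 7ST 1 of 20 was higher and 4 were lower, against 7.9 and 35.4% of all genes. The median turned to -0.021 when 1 dual guide cell was left out. Kif11, a mitotic kinesin, stood at 88.5 against 1.13 CPM but was read in only 3 of 14 and 1 of 21 cells, and Ccne1, cyclin E1, in 2 and 1 cells. Ccnd1, cyclin D1, was lower, at 29.4 against 94.2 CPM, with a read in 2 of 14 against 9 of 21 cells. The summed list reached 10950 CPM in 1 cell of 7ST and 10021 CPM in 1 cell of 7ST2, against a median of 719 CPM over dual guide cells and 603 CPM over Sox9 guide cells. Genes of immature neurons and neurogenesis held 7 higher (41.2%) and 2 lower (11.8%) of 17 (median 0.32). Without series 7ST2 4 of 16 were higher and 4 lower, against 8.4 and 22.3% of all genes. Among the genes of this list Stmn1, a microtubule regulator, stood at 229 against 104 CPM, with 100 CPM or more in 10 of 14 against 5 of 21 cells. Nes, an intermediate filament of progenitors, stood at 40.9 against 0.699 CPM. Sox4, a SOX factor of neuronal precursors, stood at 199 against 76.4 CPM and turned to a log2 ratio of -2.58 without series 7ST2. The neuron markers given above were highest of all types in 4 cells of each group, and their part in these values was not tested.

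Interferon, antiviral and antigen presentation genes held 4 higher (8.5%) and 15 lower genes (31.9%) of 47 (median -0.25), against 10.2 and 21.2% of all genes. Ifit1, an interferon-induced RNA-binding protein, had no read in dual guide cells and stood at 83.3 CPM with a read in 9 of 21 Sox9 guide cells, at least 594-fold higher. Irf7, an interferon-induced transcription factor, stood at 10.6 against 82.9 CPM. Both rested on series 7S, without which the log2 ratio of Ifit1 was -0.54 in place of -4.14 and that of Irf7 turned to 0.87. Without 7S the list held 9 higher and 3 lower genes of 36, against 20.8 and 16.7% of all genes. SOX and related transcription factors of astrocytes held 4 higher (15.4%) and 8 lower genes (30.8%) of 26 (median -0.24). Without series 7S2 the list turned to 8 higher and 3 lower of 25, against 15.2 and 19.4% of all genes. Without series 7ST2 it held 1 higher and 13 lower of 27, against 8.4 and 22.3%. Tcf7l2, a transcription factor of Wnt signalling, stood at 36.3 against 215 CPM with a read in 6 of 14 against 18 of 21 cells, and Hes5, an effector of Notch, at 4.68 against 103 CPM. Hes5 was read in 2 of 14 against 5 of 21 cells, and its log2 ratio of -3.48 was -1.82 without 1 Sox9 guide cell and -0.57 without series 7S2. Of developmental signalling genes, Boc, a hedgehog co-receptor, stood at 84.6 against 0.200 CPM, and Gas1, another hedgehog co-receptor, at 1.64 against 62.9 CPM. The shares of the lists not described here are given in the plot of lists.

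**Figure D5:**
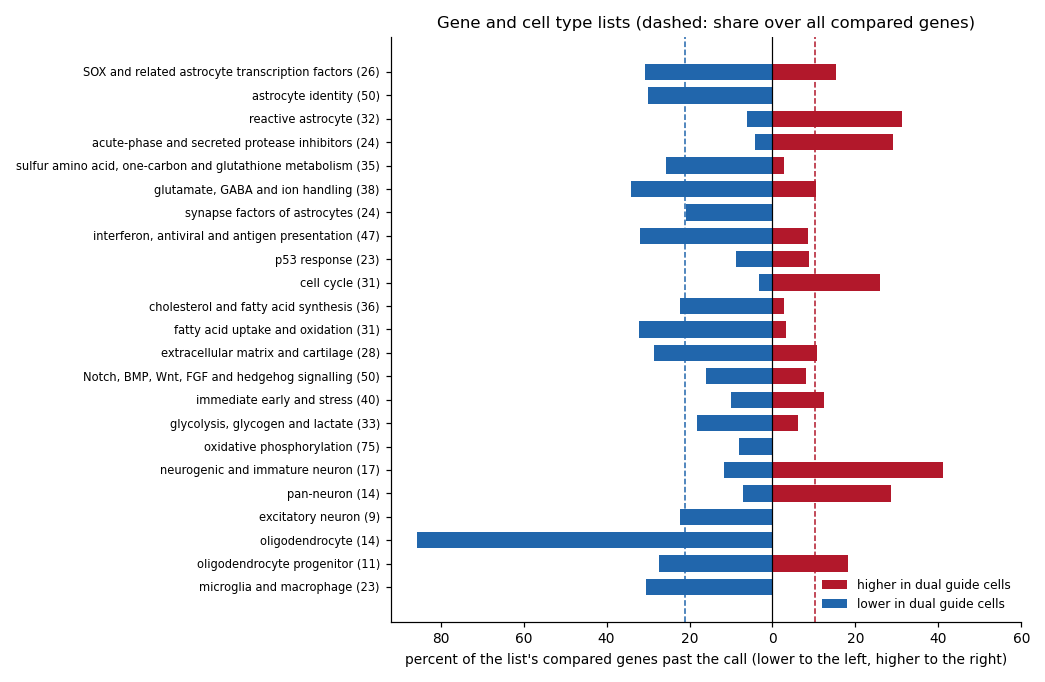
Bars give the percent of each list's compared genes (number in brackets) called higher (right) or lower (left) in dual guide cells, and dashed lines the share over all 9754 compared genes, 10.2% and 21.2%. Oligodendrocyte genes lie far to the left (12 of 14 lower), and the reactive astrocyte, acute-phase, cell cycle, immature neuron and pan-neuron lists have more higher calls than all genes.

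At day 21 the same guides could be compared in batch 4, with 13 dual guide and 16 Sox9 guide cells, where 21.4% of 7133 compared genes were higher and 17.6% lower. Of 6324 genes compared on both days, 3079 (48.7%) had a ratio of the same sign. Cbs was lower in dual guide cells at day 21 as well, at 4.90 against 167 CPM (log2 ratio -4.12), with a read in 3 of 13 and 6 of 16 cells. Atp13a4 stood at 0.0597 against 123 CPM and Las1l at 26.6 against 63.9 CPM. Other genes had a ratio of the opposite sign. Mbp stood at 566 against 154 CPM and Serpina3n at 12.2 against 49.3 CPM. Serpina3n was read in only 1 of 13 and 3 of 16 cells, and its log2 ratio of -1.66 was -0.29 without the highest cells. A2m, at 1.25 against 16.1 CPM, did not pass the level filter. Of the 12 genes named as higher at day 7, 6 passed the level filter at day 21 and none of the 6 had the same sign, and of the 12 named as lower, 9 passed and 5 had the same sign. Day and batch cannot be told apart in this comparison. Sox9 at day 21 stood at 133 against 189 CPM, with a read in 4 of 13 and 12 of 16 cells, and Trps1 at 16.7 against 41.4 CPM.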

How the data were processed

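The table deposited by the authors for batch 3 held raw read counts, with genes in rows and cells in columns. The tools STAR 2.6.0a and RSEM 1.3.0 and the build GRCm38 (mm10) appear, without a stated role, per the submitters' processing notes. The sources used here do not say how strand and shared reads were treated. Of 24304 gene rows 24265 had a symbol, and the 3 guide rows (0.00115% of reads) were kept out of totals. In batch 4, 32 columns of other groups were not used. Counts were summed over the cells of a group and divided by total reads in genes (21377901 and 30048861) with Python 3.11.15, numpy 2.4.6, pandas 2.3.3 and scipy 1.17.1. Log2 ratios used CPM + 5. Intervals are exact Poisson or Clopper-Pearson at 95%. Shares at equal depth are hypergeometric expectations at 100000 reads. Reads without molecular identifiers are not independent molecules. Members and lists were chosen with earlier results of these data known. Beside the genes named by the rule, up to 4 genes of each list with the largest ratio without the highest cells were eligible, and defining markers were too. Some genes are not reported here. The calculation was run on simulated counts with known changes. These were drawn around 1 mean per gene for all cells of a group, without series, mixed cell types or single cells of very high level. They do not show how the calls behave in cells such as these. Alternatives changed the pseudocount, filter, weighting, scaling and cells, and 4 kinds were added after the data were seen, as was leaving out each cell in turn.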

Additional observations from a re-analysis of the deposited data

Results flagged for a closer look

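Some libraries outside the 2 groups were flagged because they stood apart from the others of their kind. The flag was set for a gap that chance would give in about 1 of 20 groups. That rate need not hold where most values are 0, so the flags are no measure of rarity. Of the 4 in-slice controls 1 held a trace of Sox9 (0.463 CPM, the others none), and 1 held 116 CPM of Serpina3n, where the next held 13.4 CPM. Of the 6 no-gRNA cells 1 held 272 CPM of Trps1 (next 62.7 CPM), 1 held 493 CPM of A2m (the others none) and 1 held 624 CPM of Mbp (next 105 CPM). The Trps1 guide was read in 4 cells labelled with the Sox9 guide alone, while none of the 4 in-slice controls held a read of it. Its source was not tested, and without these 4 cells 1114 genes were higher and 1949 lower.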

How the results depend on the processing

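The 996 higher and 2069 lower genes became 438 and 969 with a pseudocount of 20 CPM, 498 and 562 with 50 CPM or more, and 421 higher on mean log2(CPM + 1). Without series 7S 1956 were higher, without series 7ST 3225 lower, and without the highest cells 3209 lower. Leaving out each cell in turn gave 870 to 1126 higher and 1997 to 2302 lower genes. Higher genes made up 32.5% of calls, but 47.0% at 50 CPM or more and 13.4% on mean log2 values. They made up 18.3% without 7ST, 27.3% without 7ST2, 55.5% without 7S and 43.9% without 7S2. No cell had under 100000 reads, so that planned exclusion changed nothing. The 24 genes named by the rule kept their direction under all 17 alternatives, which the rule in part fixes, and 8 of the 12 higher ones were called without 7ST2.

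Among called genes named here or eligible as list examples, log2 ratios that turned without series 7ST2 were those of Serpina3n (-1.50), Osmr (-1.60), Atf3 (-0.080), Sox4 (-2.58) and Vip (-0.57), while Slc10a6 and Serpinf1 went to 0. Without 7S they were Sox10 (3.13), Oasl2 (0.93), Irf7 (0.87), Adamts4 (0.053), Cldn11 (0.89), Sirt2 (1.66), Cnp (0.40), Gpr17 (2.00) and Siglech (2.37), while Col9a3 went to 0. Without the 3 Sox9 guide cells highest in oligodendrocyte markers they were Sox10 (3.15), Adamts4 (0.053), Cldn11 (1.19), Sirt2 (1.09), Cnp (0.29) and Gpr17 (2.36), with Col9a3 at 0. In the cells whose astrocyte markers were highest they were Sox10 (4.05), Eno2 (-0.28), Cldn11 (1.64), Cnp (0.25), Gpr17 (0.016) and Cd74 (0.089), with Col9a3 and Adamts4 at 0. Stmn2 turned without 7ST (-0.32) and Fezf2 without 7S2 (1.26). Genes not called turned as well, among them Sox9 without 7ST2 (-1.64). The causes were not tested. No paired analysis was possible because the labels name no animal and each group is 1 pool without a test. Depth limits low genes: 3 counts are 0.140 CPM in the dual guide pool.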
